A study of Mus musculus with 12 samples.

Results

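The soleus, a postural calf muscle, and the tibialis anterior (TA), a dorsiflexor on the front of the shin, were compared in wild type (WT) mice aged 4 weeks. The comparison used 6 of the 12 arrays of the series, chosen by their titles: 3 WT soleus arrays and 3 WT TA arrays. The study profiled both muscles, each on 3 Affymetrix arrays per genotype, in WT mice and in mice lacking H6pd (KO), the hexose-6-phosphate dehydrogenase of the endoplasmic reticulum. All mice were 4 weeks old, and the submitters called the 3 arrays of a group biological replicates. The labels name no strain, sex, allele or number of mice per array. The 2 muscles were chosen by the study for their unlike fibre type content and metabolism. The 6 KO arrays entered the fit that estimated the spread, and their soleus and TA are set beside the WT muscles further on.

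Skeletal muscle fibres are built from matched sets of contractile proteins, and many of these exist as a slow and a fast isoform encoded by separate genes. Slow fibres carry the type I myosin heavy chain encoded by Myh7, use oxidative metabolism and resist fatigue, and the mouse soleus is the usual example of a muscle rich in them. Fast fibres carry type II myosins, of which the IIb form encoded by Myh4 is the fastest, rely more on glycogen and glycolysis, and make up most of the mouse TA. In whole muscle RNA, fewer fibres of a type and less RNA per fibre cannot be told apart.

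The 250 bases before the start of 4 genes at the ends of the comparison are printed here, with 2 slow genes (Tnnc1 and Tnnt1) and 2 genes high in TA (Myh4 and the noncoding gene 2310065F04Rik). They come from RefSeq promoters of build GRCm38.p6, each 5′ to 3′ on its gene's strand: Tnnc1 at chr14:31208062-31208311 on the plus strand, Tnnt1 at chr7:4515976-4516225 on the minus strand, Myh4 at chr11:67237562-67237811 on the plus strand and 2310065F04Rik at chr11:67120081-67120330 on the minus strand. Capitals mark 4 motifs, each searched on both strands, which may overlap: the E-box CANNTG, bound by MyoD family factors, the MCAT element CATTCC, bound by TEAD factors, the TATA box TATAAA, and the binding motif of MEF2.
Tnnc1: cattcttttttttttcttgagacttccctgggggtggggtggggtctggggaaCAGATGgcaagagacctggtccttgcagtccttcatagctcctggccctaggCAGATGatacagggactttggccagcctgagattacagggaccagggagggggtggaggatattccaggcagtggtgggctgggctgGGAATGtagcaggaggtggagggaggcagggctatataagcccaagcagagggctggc
Tnnt1: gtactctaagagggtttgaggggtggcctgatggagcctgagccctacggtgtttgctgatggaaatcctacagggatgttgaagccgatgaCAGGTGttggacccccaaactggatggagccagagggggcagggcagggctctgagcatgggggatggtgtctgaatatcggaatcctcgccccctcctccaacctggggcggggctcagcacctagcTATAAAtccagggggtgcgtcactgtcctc
Myh4: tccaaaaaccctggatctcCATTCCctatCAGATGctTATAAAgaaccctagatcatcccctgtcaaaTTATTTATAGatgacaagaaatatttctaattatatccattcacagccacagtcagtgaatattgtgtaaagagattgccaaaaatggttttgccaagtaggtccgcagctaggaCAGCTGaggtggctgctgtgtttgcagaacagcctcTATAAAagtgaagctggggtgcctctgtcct
2310065F04Rik: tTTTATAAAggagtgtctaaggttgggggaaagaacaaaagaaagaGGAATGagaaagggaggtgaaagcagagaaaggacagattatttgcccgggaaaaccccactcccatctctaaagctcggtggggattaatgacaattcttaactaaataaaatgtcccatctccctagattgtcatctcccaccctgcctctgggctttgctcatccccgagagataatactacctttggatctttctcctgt

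The TATA box nearest the start began 30 bases before it in Tnnt1 and 31 bases before it in Myh4. In 2310065F04Rik the nearest began 247 bases before the start, and the Tnnc1 window held none in these letters. Among all 32851 RefSeq windows of this length, 66.2% held an E-box, 12.6% an MCAT element, 12.4% a TATA box and 2.92% a MEF2 motif. Of the 13 slow contractile genes called below, 12 had a window, and their 16 windows all held an E-box, with MCAT in 3, a TATA box in 2 and MEF2 in 3. Of the 10 fast contractile genes called, 5 had a window, and of these 5 windows 5 held an E-box, 2 MCAT, 1 a TATA box and 2 MEF2. These matches are descriptions of letters and no test was made of them.

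The deposited values are log2 signals, and their 2% trimmed means on the linear scale spanned a 1.11-fold range, so arrays were quantile normalized. A level below is this normalized log2 signal, and a difference is the WT soleus mean minus the WT TA mean on the same log2 scale, with the standard error (SE) of the model. Over all genes the first principal component (46.6% of the variance) separated the muscles. The second (18.6%) set the arrays numbered 3 apart in all 4 groups. H6pd itself, read by 1 probe set, spanned 5.57 to 7.11 in WT soleus, 6.26 to 7.92 in WT TA, 4.19 to 6.10 in KO soleus and 6.49 to 7.49 in KO TA. Its KO and WT levels overlapped in both muscles, and no label says whether this probe set lies in the deleted part, so it checks none of the genotypes.

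Soleus and TA differed in 1392 of 13009 genes tested (10.7%) by limma at a Benjamini-Hochberg adjusted p under 0.05. Of these, 578 genes (4.44% of those tested) were higher in soleus and 814 (6.26%) higher in TA, and 588 (4.52%) also differed by more than 2-fold, with 312 (2.4%) higher in soleus and 276 (2.12%) higher in TA. The largest differences lay on the soleus side and were led by contractile genes, as the plot of differences against mean level shows. Of the called genes, 200 were under log2 5 on all 6 WT arrays, 169 of them higher in TA, with a median size of 0.27. Without these, 547 called genes were higher in soleus and 645 higher in TA. The median difference over all genes was -0.02, and the median size of a called difference was 0.89. Each gene was read by its brightest probe set. Of the called named genes 66 had another probe set that passed the filter, and in 42 of these at least 1 was not called or had the opposite sign, for 19 only on probe sets with both means under log2 5. The sign was opposite in 7, and 0 of those probe sets were called. The 3 soleus and 3 TA values did not overlap in 4586 genes (35.3%), among them all 1392 called genes. The split between directions depended on scaling: 41.5% of calls were higher in soleus here, 48.3% on the table as deposited and 66.2% with arrays centred on their medians. A fit with a block for the replicate number called 2369 genes. The count was 699 without soleus replicate 1, 758 without soleus replicate 2, 853 without TA replicate 1 and 844 without TA replicate 2, and 963 with both WT arrays numbered 3 left out, of which 831 were among the 1392.

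**Figure D1:**
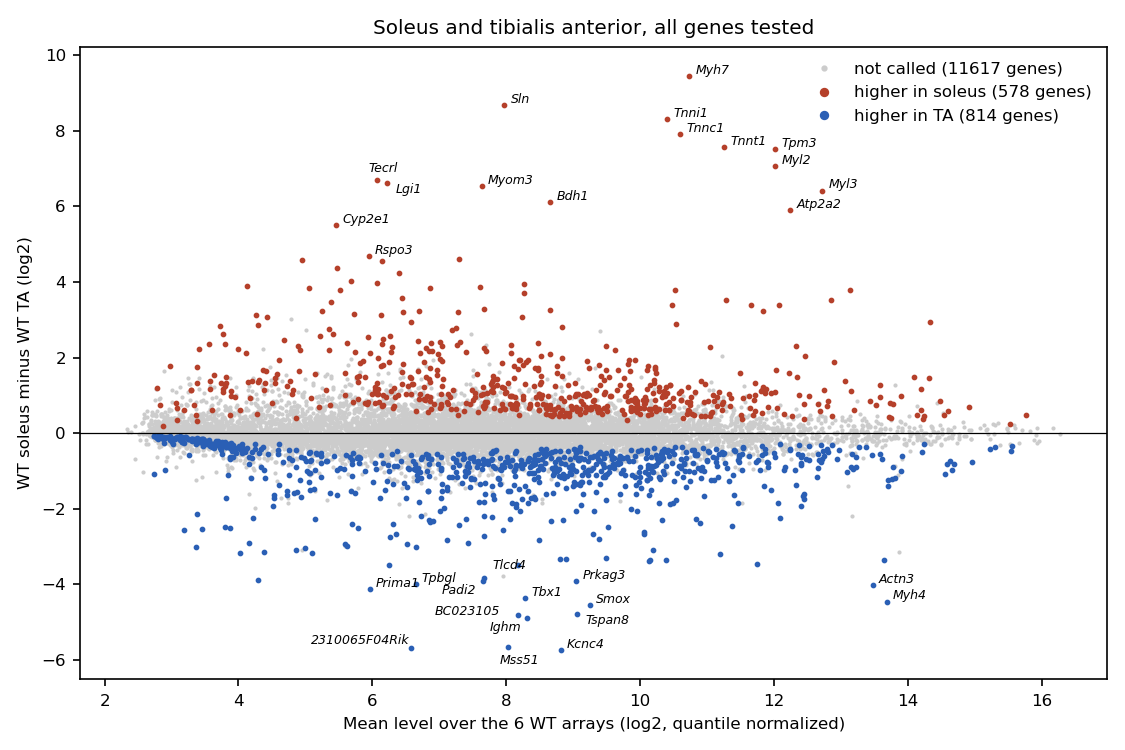
Difference between WT soleus and WT TA (y axis, log2) against the mean level over the 6 WT arrays (x axis, log2), 1 point per gene, for all 13009 genes tested; coloured points are the 578 genes higher in soleus and the 814 higher in TA at an adjusted p under 0.05. The named genes are the 15 highest and 15 lowest called differences among genes whose higher muscle has a mean of at least log2 7, from Myh7 at 9.46 to Kcnc4 at -5.74.

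Slow contractile isoforms set the muscles furthest apart. Of 15 measured, 13 were higher in soleus and 0 higher in TA (86.7% called, against 10.7% of all genes). The median difference was 6.42 against -0.02 over all genes. The members of this list and of the lists below were chosen with earlier results of these data known. The shares called are thus descriptions of each list and not tests of it. Myh7, the slow myosin heavy chain, had levels of 15.50, 15.48 and 15.42 in the soleus arrays and 7.11, 8.25 and 2.67 in the TA arrays. The soleus arrays were alike, while TA replicate 3 lay far below the other 2 TA arrays. The Myh7 difference was 9.46 (SE 1.09, adjusted p = 0.000681), and it was 7.79 (adjusted p = 2.13e-06) without TA replicate 3.

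The slow troponins followed. Tnni1, the slow inhibitory subunit, had levels of 14.77, 14.68 and 14.22 in soleus and 7.04, 6.83 and 4.86 in TA, a difference of 8.31 (SE 0.49, adjusted p = 9.49e-06). Tnnc1, the calcium-binding subunit shared by slow and cardiac muscle, differed by 7.92 (SE 0.38, adjusted p = 2.15e-06), and Tnnt1, the slow tropomyosin-binding subunit, by 7.58 (SE 0.63, adjusted p = 0.000122). These 2 genes carry the first 2 promoter windows printed above. In both, as in Tnni1 and Myh7, TA replicate 3 was the lowest array, and it was the lowest of the TA arrays in 11 of the 13 called slow genes. The mean level over the 13 was 13.98, 14.06 and 13.97 in the soleus arrays and 8.45, 8.64 and 7.10 in the TA arrays.

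The slow light chains, tropomyosin and M-band and Z-disc proteins showed the same order. Myl2, the regulatory light chain, differed by 7.06 (SE 0.72) and Myl3, the essential light chain, by 6.42 (SE 0.33). Tpm3, slow tropomyosin, differed by 7.52 (SE 0.34) on its brightest probe set. Of its 4 other probe sets, 2 were called at 6.98 and 0.91, and 2 of lower signal gave 0.80 and -0.08 and were not called. Myom3, an M-band protein of slow and intermediate fibres, was near background in TA, meaning under log2 5 on all 3 arrays, so it was at least 59.9-fold higher in soleus, a bound set against log2 5. Myoz2, a slow and cardiac Z-disc calsarcin, had levels of 15.07, 15.02 and 14.98 in soleus and 11.28, 11.37 and 11.05 in TA (difference 3.79, SE 0.14, adjusted p = 4.70e-07).

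The remaining slow genes differed less. Mybpc1, slow myosin-binding protein C, was bright in both muscles at 14.90 and 14.31 and differed by 0.60 (SE 0.13, adjusted p = 0.0198), and this call was lost without soleus replicate 1 or 2 or TA replicate 1 or 2 (adjusted p up to 0.069). The difference of Casq2, the calsequestrin of slow and cardiac muscle, was 2.29 (SE 0.47, adjusted p = 0.0141), with an adjusted p of 0.0591 without soleus replicate 1. Pln, phospholamban, differed by 0.82 (adjusted p = 0.495) and Myl6b by -0.01 (adjusted p = 0.884), and neither was called. Other Pln probe sets gave 2.71 (means of 5.50 in soleus and 2.79 in TA, adjusted p = 0.060) and 0.95 (adjusted p = 0.21), also not called. The other 11 called slow genes kept their call whichever WT array was left out.

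Fast contractile isoforms differed the other way. Of 18 measured, 10 were higher in TA and 0 in soleus (55.6% called, against 10.7% of all genes), with a median difference of -0.89. Myh4, the IIb myosin heavy chain, had levels of 10.96, 13.19 and 10.22 in soleus and 15.91 in each TA array, where it held the same rank. Its deposited TA values were 16.02, 16.00 and 15.96. Soleus replicate 2 was the highest soleus array, and the groups did not overlap. The Myh4 difference was -4.45 (SE 0.91, adjusted p = 0.0139), and without soleus replicate 1 it was -4.21 with an adjusted p of 0.0568. The TA values lie near the highest of the table, 16.36, so no fold is given. Another Myh4 probe set, with means of 6.66 in soleus and 13.71 in TA, gave a larger difference of -7.04 (SE 1.44, adjusted p = 0.0176).

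Actn3, the alpha-actinin of fast fibres, had levels of 11.39, 12.76 and 10.24 in soleus and 15.42, 15.48 and 15.55 in TA. Soleus replicate 2 was again the highest of its group, as it was for 5 of the 10 called fast genes. The Actn3 difference was -4.02 (SE 0.85, adjusted p = 0.0159), and without soleus replicate 1 it was -3.98 with an adjusted p of 0.0557. The kinases Mylk4 and Mylk2, the latter phosphorylating the fast regulatory light chain, differed by -3.45 (SE 0.33, adjusted p = 0.000284) and -2.62 (SE 0.53, adjusted p = 0.0133). Mybpc2, fast myosin-binding protein C, had levels of 11.33, 12.78 and 11.78 in soleus and 15.34, 15.40 and 15.26 in TA (difference -3.37, SE 0.42, adjusted p = 0.00118). The fast calsarcins Myoz1 and Myoz3 differed by -1.39 and -1.35.

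The fast troponins and light chains had small differences on their brightest probe sets. Tnnc2, Tnni2, Tnnt3, Myl1 and Mylpf, all between 15.21 and 16.21 on every WT array, differed by -0.03, -0.19, -0.26, -0.20 and -0.30 and were not called. These levels too lie close to the highest value of the table, and the part of this limit in the small differences was not tested. The sign of Tnnc2 turned to 0.01 under array weights and without soleus replicate 3. For Tnni2, 2 other probe sets were called at -1.13 and -0.30, and for Tpm1 another was called at -1.36 against -0.31 on the brightest. With the replicate block, Mylpf and Tpm1 passed the test on these same differences (adjusted p = 0.0253 and 0.0266), and 13 fast genes were called in all. Pvalb, the calcium buffer parvalbumin, had levels of 12.14, 13.21 and 11.55 in soleus and 15.51, 15.45 and 15.35 in TA. Its values did not overlap, but the difference of -3.14 did not pass (adjusted p = 0.0604). Without soleus replicate 1 the fast list had 6 calls.

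**Figure D2:**
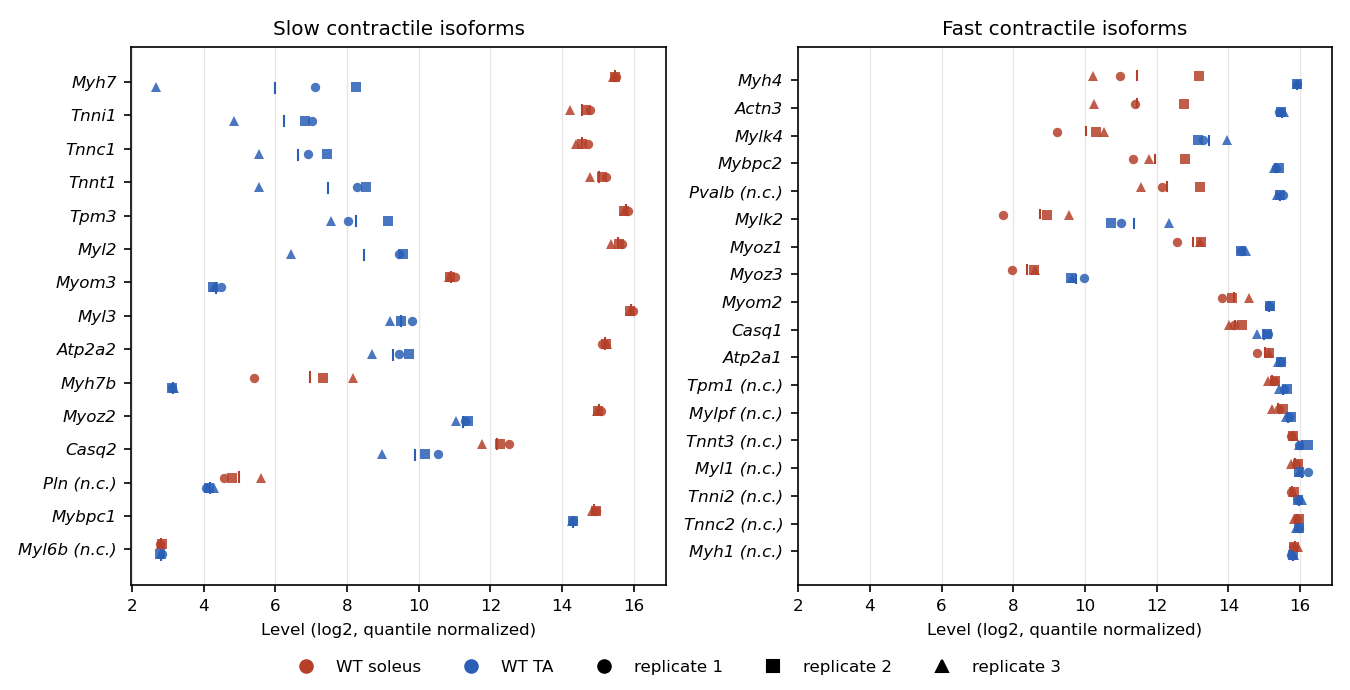
Level (x axis, log2) of each slow and fast contractile gene (y axis) on the 3 WT soleus and 3 WT TA arrays, with marker shape giving the replicate and a short line the group mean; n.c. marks genes not called. Slow genes such as Myh7 (15.42 to 15.50 in soleus, 2.67 to 8.25 in TA) are widely apart, while fast genes such as Tnnc2 and Tnni2 sit between 15.74 and 16.05 in both muscles.

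Among the 8 myosin heavy chain genes measured, 5 were higher in soleus, 1 (Myh4) in TA, and 2 were not called. Called were thus 75%, against 10.7% of all genes. The calls include Myh7, Myh7b and Myh4, which the lists of slow and fast isoforms above hold too. Myh2, the fast oxidative IIa chain, had levels of 15.82, 15.78 and 15.78 in soleus and 12.66, 12.34 and 13.56 in TA (difference 2.94, SE 0.25, adjusted p = 0.000129). Myh1, the IIx chain, overlapped between the muscles, with means of 15.86 and 15.79 and a difference of 0.07 (SE 0.11, adjusted p = 0.744). These levels, like those of Myh2 in soleus, lie near the highest of the table, 16.36. The part of this limit in the small Myh1 difference was not tested. Of the 3 adult fast chains the 1 called higher in soleus was IIa and the 1 called higher in TA was IIb. The ratio of one chain to another was not read, since levels of different probe sets are not comparable.

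The cardiac and developmental chains were of lower signal. Myh6, the cardiac alpha chain, was near background in TA and at least 10.7-fold higher in soleus, although a second probe set, dim in both muscles, gave -0.09. Myh7b, a slow chain of specialised fibres, was at least 3.92-fold higher in soleus, with soleus levels of 5.40, 7.34 and 8.17. Myh3, the embryonic chain, had levels of 9.55, 9.09 and 7.72 in soleus and 7.24, 6.66 and 5.93 in TA (difference 2.18, SE 0.56, adjusted p = 0.0357). The Myh3 call was lost without soleus replicate 1 or 2 or TA replicate 2 or 3 (adjusted p up to 0.131). Myh8, the perinatal chain, differed by -0.26 (adjusted p = 0.862).

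A wider list of sarcomere and Z-disc genes also differed. Of 38 measured, 13 were higher in soleus and 6 in TA, a share of 50% against 10.7% of all genes. The median difference was 0.21. These counts include Myoz1 and Myoz2, which the lists of slow and fast isoforms above hold too. Besides Myoz2, the largest were Fhl2, a LIM protein of titin, which was at least 11.4-fold higher in soleus, Pdlim1, an alpha-actinin binding protein (3.53), Csrp3, the muscle LIM protein (3.39), Lmod2, a thin filament length regulator (3.39), and Ankrd2, a stretch-responsive titin binding protein (3.24). Csrp3 had levels of 14.05, 13.49 and 13.77 in soleus and 10.44, 10.87 and 9.82 in TA, and the groups did not overlap. Actn2, the alpha-actinin of all fibres, differed by 1.16 (SE 0.13, adjusted p = 0.000462), opposite in sign to Actn3. Higher in TA besides Myoz1 and Myoz3 were Tmod1, a cap of thin filament ends (-1.63), Pdlim7 (-1.36), Tmod4 (-0.57) and Capza2, a Z-disc capping protein subunit (-0.78). The Capza2 call was lost without any soleus array or without TA replicate 1 (adjusted p up to 0.0864).

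**Figure D3:**
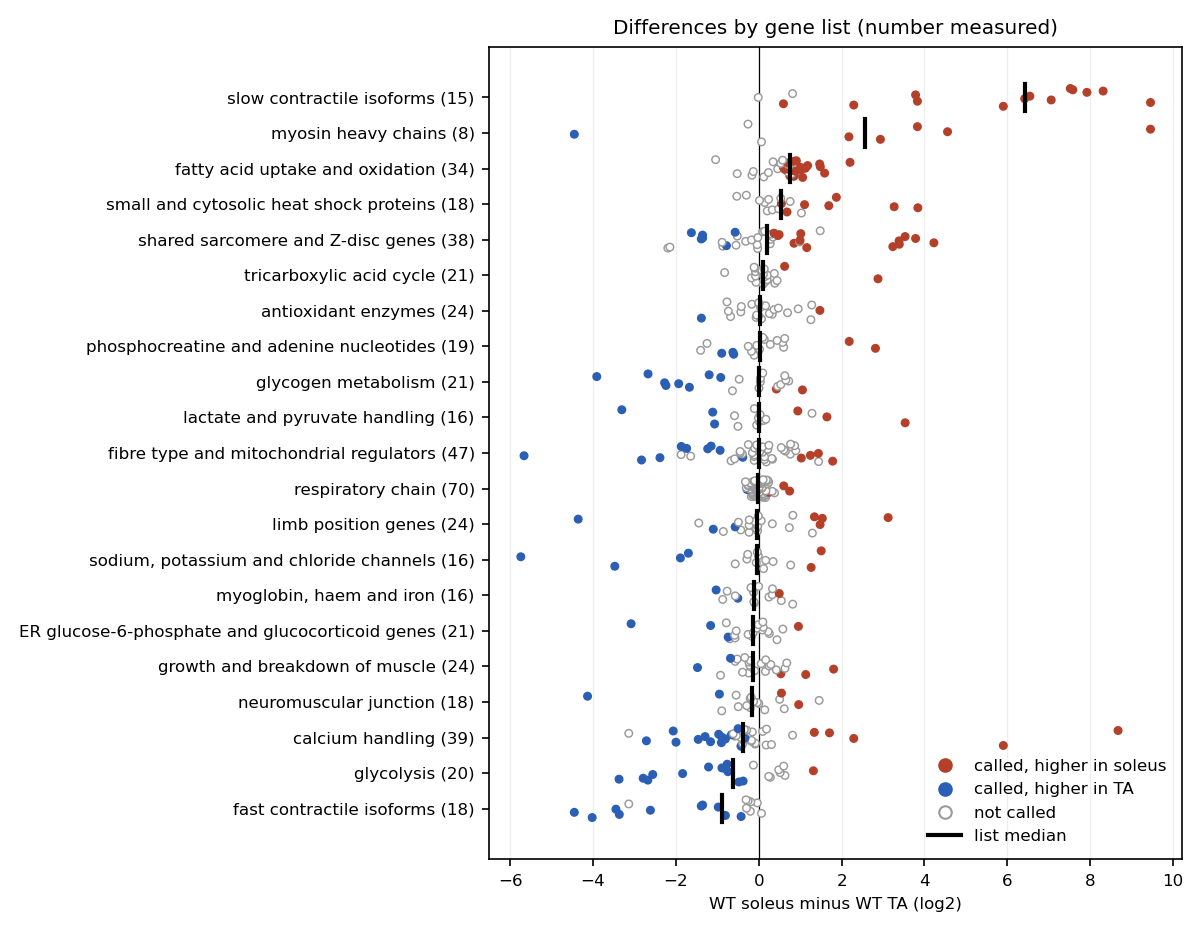
Difference between WT soleus and WT TA (x axis, log2) for each measured member of 21 pathway lists (y axis, number measured in brackets), with filled points for called genes, open points for genes not called and a black line at the list median. Slow isoforms lie furthest to the soleus side (median 6.42) and fast isoforms furthest to the TA side (median -0.89), while the respiratory chain stays within -0.32 and 0.75.

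The calcium handling genes that were called were mostly higher in TA. The sarcoplasmic reticulum is known to be more extensive in fast fibres, and its part in these differences was not tested. Of 39 measured, 14 were higher in TA and 5 in soleus, with a median of -0.39 (48.7% called, against 10.7% of all genes), and the count of calls was 11 without soleus replicate 1. These counts include Atp2a1, Atp2a2, Casq1 and Casq2, which the lists of slow and fast isoforms above hold too. The pumps split by isoform. Atp2a2, the SERCA2 pump of slow and cardiac muscle, had levels of 15.12, 15.23 and 15.24 in soleus and 9.45, 9.74 and 8.69 in TA (difference 5.90, SE 0.23, adjusted p = 4.70e-07). Atp2a1, the fast SERCA1 pump, was bright in both, at means of 15.02 and 15.44. Its difference of -0.43 (adjusted p = 0.0334) was no longer called without any 1 of 5 WT arrays, soleus replicate 3 being the exception (adjusted p up to 0.0963). Sln, sarcolipin, a small inhibitor of SERCA, had levels of 12.29, 12.03 and 12.61 in soleus and 3.17, 2.68 and 5.06 in TA, a difference of 8.67 (SE 0.98, adjusted p = 0.00061).

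Among genes of the triad and calcium signalling, those higher in TA included Cacng1, the gamma subunit of the muscle calcium channel (-2.0), Slc8a3, a sodium-calcium exchanger (-2.06), Jph1, which joins the reticulum to the T-tubule (-0.89), and Casq1, the fast calsequestrin (-0.81). Camk2a, a calmodulin-dependent kinase gene that also encodes a reticulum anchoring protein, differed by -2.71 (SE 0.57, adjusted p = 0.0154), with an adjusted p of 0.0618 without soleus replicate 1 and 0.0586 without soleus replicate 2. The calcineurin catalytic subunits Ppp3ca and Ppp3cb were higher in TA, with differences of -0.66 and -0.97. Regulators that can inhibit calcineurin lay on the other side, with Rcan2 at 1.34 (SE 0.17, adjusted p = 0.00136) and Rcan1 at 1.71 (SE 0.36, adjusted p = 0.0148). The Rcan1 call was lost without soleus replicate 1 (adjusted p = 0.0622) or TA replicate 2 (adjusted p = 0.0569).

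Of 16 sodium, potassium and chloride channel and pump genes measured, 4 were higher in TA and 2 in soleus. Called were thus 37.5%, against 10.7% of all genes. Kcnc4, a rapidly activating voltage-gated potassium channel, had the lowest difference among the bright genes. Its levels were 5.58, 6.12 and 6.13 in soleus and 11.74, 11.58 and 11.74 in TA (difference -5.74, SE 0.55, adjusted p = 0.000278). Its relative Kcnc1 differed by -1.89 (SE 0.37) and another Kcnc1 probe set, dim in both muscles, gave 0.06. The inward rectifier Kcnj12 was near background in soleus and at least 1.71-fold higher in TA (adjusted p = 0.00334). The beta subunits of the sodium pump lay on opposite sides, with Atp1b2 at -3.48 (SE 0.47, adjusted p = 0.00181) and Atp1b1 at 1.27 (SE 0.18, adjusted p = 0.00253). Kcnma1, the large conductance calcium-activated potassium channel, differed by 1.51 (SE 0.24). All 6 calls held whichever WT array was left out.

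Glycolytic genes were higher in TA as a group. Of 20 measured, 12 were higher in TA and 1 in soleus (65% called against 10.7% of all genes), with a median of -0.61. The pathway's bright enzymes differed by modest amounts, namely Pkm, pyruvate kinase (-1.21), Pgk1 (-0.89), Pgam2 (-0.80), Tpi1 (-0.76), Pfkm, the muscle phosphofructokinase (-0.74), Aldoa (-0.48) and Eno3 (-0.38). Larger differences were in regulatory and side enzymes. Gpd1, the cytosolic glycerol-3-phosphate dehydrogenase, had levels of 8.29, 8.98 and 8.05 in soleus and 12.28, 12.02 and 11.15 in TA (difference -3.37, SE 0.36, adjusted p = 0.000407). Gpd2, its mitochondrial partner in the shuttle that carries glycolytic electrons, had levels of 8.02, 7.95 and 8.01 in soleus and 10.82, 10.997 and 10.54 in TA (difference -2.79, SE 0.22, adjusted p = 7.95e-05).

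Fbp2, the muscle fructose bisphosphatase, differed by -2.68 (SE 0.37, adjusted p = 0.00195). Pfkfb3 and Pfkfb4, which make and break fructose 2,6-bisphosphate, differed by -2.56 and -1.84. These 12 calls held whichever WT array was left out. Pfkp, the platelet phosphofructokinase, was the 1 member higher in soleus (1.32, adjusted p = 0.035), a call that held only without TA replicate 3 among the 6 omissions (adjusted p up to 0.111). The glucose transporter Slc2a4 (GLUT4) and hexokinase Hk2 differed by -0.13 and 0.24 and were not called. Gapdh, Gpi1 and Eno1 had no probe set that names them alone and were not analysed here.

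Of 21 glycogen metabolism genes measured, 8 were higher in TA and 2 in soleus (47.6% called, against 10.7% of all genes). The median was 0.01. All 3 called subunits of phosphorylase kinase, which switches on glycogen breakdown, were higher in TA: Phkg1 (-2.27), Phka1 (-2.24) and Phkb (-1.93). Phka1 had levels of 10.73, 11.19 and 10.97 in soleus and 13.11, 13.34 and 13.16 in TA (SE 0.12, adjusted p = 4.24e-06). Pygm, the phosphorylase itself, differed by -1.20 and Pgm1, phosphoglucomutase, by -1.67. Stbd1, a glycogen anchoring protein, differed by -2.67 (SE 0.40, adjusted p = 0.00272). Prkag3, the AMP-activated kinase gamma subunit of fast muscle, had levels of 6.80, 7.36 and 7.11 in soleus and 11.50, 11.13 and 10.37 in TA (difference -3.91, SE 0.37, adjusted p = 0.000278). Gbe1, the branching enzyme, was higher in soleus (1.05, SE 0.15, adjusted p = 0.00253). The muscle glycogen synthase Gys1 differed by 0.01 (SE 0.48, adjusted p = 0.995).

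Lactate and pyruvate genes split by isoform in the same way as the contractile genes. Of 16 measured, 3 were higher in each muscle (37.5% called, against 10.7% of all genes). Ldhb, the heart-type lactate dehydrogenase subunit, had levels of 14.31, 14.49 and 15.05 in soleus and 10.73, 10.68 and 11.84 in TA (difference 3.54, SE 0.34, adjusted p = 0.000296). Ldha, the muscle-type subunit, differed by -1.07 (SE 0.11, adjusted p = 0.000462). Slc16a3, the MCT4 transporter that exports lactate from fast fibres, had levels of 7.55, 8.43 and 7.52 in soleus and 11.45, 11.30 and 10.66 in TA (difference -3.31, SE 0.31, adjusted p = 0.000278). Slc16a1, the MCT1 transporter, differed by 0.94 (adjusted p = 0.0147), with an adjusted p of 0.0556 without soleus replicate 1 or soleus replicate 2. Of the regulators of pyruvate dehydrogenase, the kinase Pdk1 was higher in soleus (1.65) and the phosphatase Pdp1 higher in TA (-1.11), and Pdk4 (1.29) and Pdk2 (-0.59) were not called.

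Fatty acid genes were higher in soleus as a group. Of 34 measured, 20 were higher in soleus and 0 in TA (58.8% called, against 10.7% of all genes), with a median difference of 0.75. At the entry steps, Cd36, the fatty acid translocase, had levels of 13.14, 13.15 and 12.78 in soleus and 11.56, 11.41 and 11.33 in TA (difference 1.59, SE 0.17, adjusted p = 0.000513). Of 2 other Cd36 probe sets 1 was called at 1.58 and 1, at 0.80, was not. Lpl, lipoprotein lipase, differed by 1.47 (SE 0.14, adjusted p = 0.000306) and Fabp3, the heart fatty acid binding protein, by 1.49 (SE 0.22, adjusted p = 0.00272). Plin5, a lipid droplet protein of oxidative tissue, differed by 2.20 (adjusted p = 0.0251), a call lost without soleus replicate 2 or 3 or TA replicate 1 or 2 (adjusted p up to 0.0784).

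Beta-oxidation enzymes differed by a narrower range: Hadha, the trifunctional protein alpha subunit (1.18), Acaa2, a thiolase (1.06), Eci1 (1.02), Acadvl (0.86), Acadl (0.85), Acadm (0.75) and Hadh (0.61). The electron transfer flavoprotein route was represented by Etfa (1.12), Etfdh (1.01) and Etfb (0.60). Of the 20 calls, 11 held whichever WT array was left out. The list had 12 calls without soleus replicate 2, 12 without TA replicate 1 and 12 without both WT arrays numbered 3. The 9 that were lost included Acadvl and Acadl (adjusted p of up to 0.0519 and 0.054) and Etfb (up to 0.0718), all 3 without soleus replicate 2 or TA replicate 1.

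The downstream mitochondrial genes did not differ as a group. Of 70 respiratory chain genes measured, 3 were higher in soleus and 1 in TA (5.71% called, against 10.7% of all genes), and the median was -0.02. Ndufb3, a complex I subunit, was the call that held whichever array was left out (0.60, SE 0.10, adjusted p = 0.00449). Of 21 tricarboxylic acid cycle genes, 2 were higher in soleus and 0 in TA (9.52% called, against 10.7% of all genes). Idh2, the mitochondrial NADP-dependent isocitrate dehydrogenase, had levels of 11.51, 11.91 and 12.51 in soleus and 8.98, 8.65 and 9.65 in TA (difference 2.88, SE 0.30, adjusted p = 0.000404). Suclg2 differed by 0.62, a call lost without soleus replicate 2 or 3 or TA replicate 1 or 2 (adjusted p up to 0.11). Myoglobin (Mb), the oxygen store, was bright in both muscles and higher in soleus by 0.49 (SE 0.08, adjusted p = 0.00381), near the top of the scale. In its list of 16 haem and iron genes 18.8% were called, against 10.7% of all genes. The list also held 2 genes higher in TA, Fech, ferrochelatase (-0.51), and Slc40a1, ferroportin (-1.03). Under median centring neither passed (adjusted p = 0.061 and 0.0764), and the Slc40a1 call rested on 5 of the 6 WT arrays, each of whose omission ended it (adjusted p up to 0.146).

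**Figure D4:**
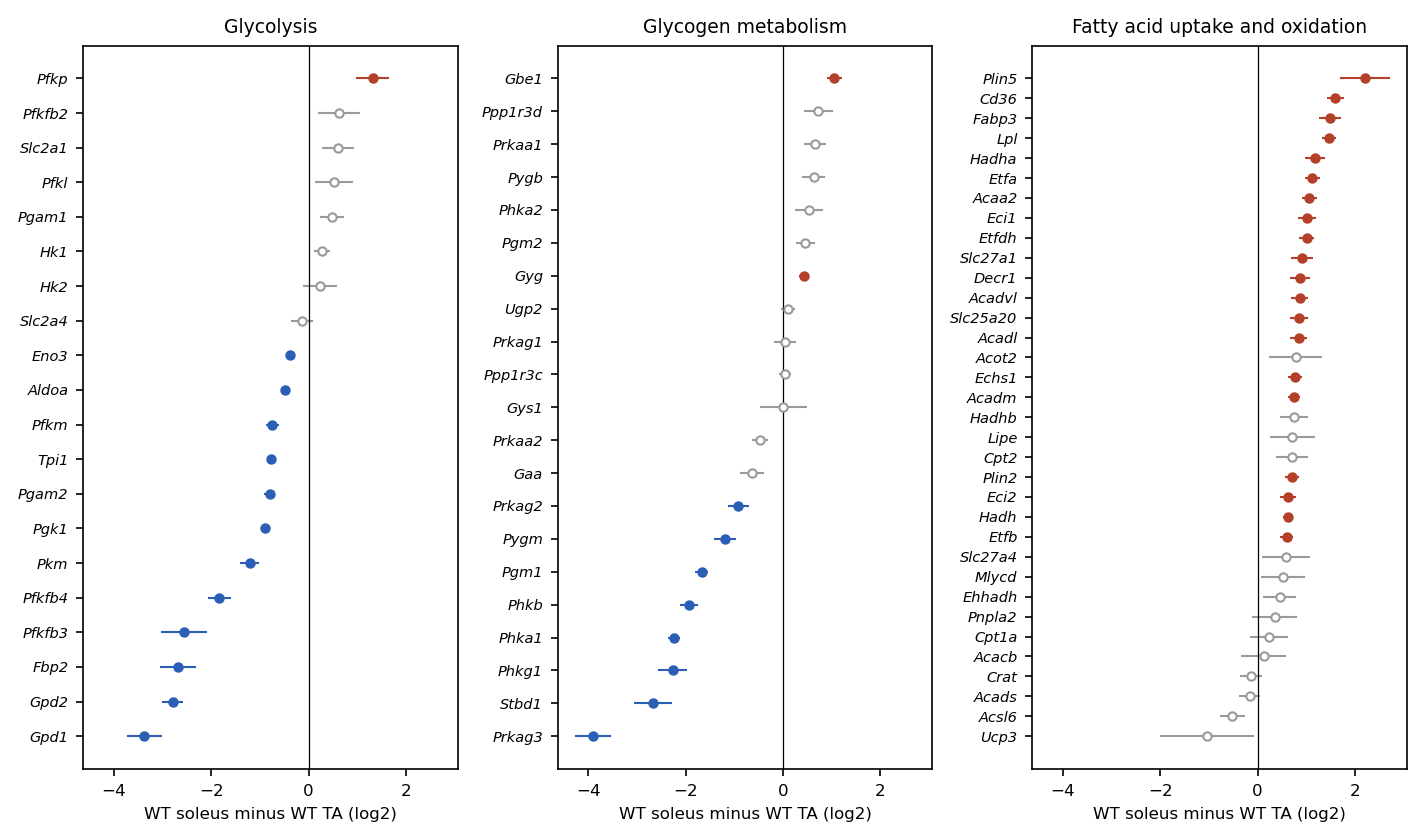
Difference between WT soleus and WT TA (x axis, log2) for each measured gene (y axis) of glycolysis, glycogen metabolism and fatty acid use, with the standard error as a bar, filled points for called genes and open points for genes not called. Called glycolytic genes lie to the TA side from Gpd1 at -3.37 to Eno3 at -0.38 with Pfkp the exception, and called fatty acid genes lie to the soleus side from 0.60 to 2.20.

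Of 19 phosphocreatine and adenine nucleotide genes, 2 were higher in soleus and 3 in TA (26.3% called, against 10.7% of all genes). Ampd3, an AMP deaminase isoform, had levels of 10.19, 9.97 and 10.58 in soleus and 7.17, 7.59 and 7.51 in TA (difference 2.82, SE 0.29, adjusted p = 0.000347). Nt5c2, a cytosolic nucleotidase, differed by 2.18 (SE 0.32). Adssl1, the muscle adenylosuccinate synthase, was higher in TA (-0.60, adjusted p = 0.00509). The adenylate kinases Ak1 (-0.89) and Ak3 (-0.62) were called in TA but lost the call under median centring (adjusted p = 0.0588 and 0.0979) and in 5 and 6 of the 6 single omissions of a WT array. The creatine kinases sat near the top of the scale. Ckm, the cytosolic muscle form, differed by -0.25 on its brightest probe set (adjusted p = 0.122) and by -1.62 on another of lower signal, which was called. Ckmt2, the mitochondrial form, differed by 0.28 (adjusted p = 0.0528), which passed with the replicate block (adjusted p = 0.0294).

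Of 47 regulators of fibre type and mitochondria measured, 9 were higher in TA and 4 in soleus (27.7% called, against 10.7% of all genes). The median was -0.00069. Mss51, a zinc finger gene of fast fibres, had levels of 5.13, 5.23 and 5.23 in soleus and 10.21, 11.21 and 11.17 in TA (difference -5.67, SE 0.31, adjusted p = 5.18e-06). Eya4, a transcriptional coactivator, differed by -2.83 (SE 0.25), the transcription factor Maf by -2.39 (SE 0.21), and Sox6, a repressor of slow genes, by -1.87 (SE 0.26). Rxrg, a retinoid receptor, the splicing factor Rbfox1 and Tbx15, a transcription factor of glycolytic fibres, were also higher in TA (-1.74, -1.23 and -1.15). On the soleus side were Esrrg, an oestrogen-related receptor that drives oxidative genes (1.78, SE 0.25, adjusted p = 0.00231), and Nfatc2 (1.44, SE 0.23, adjusted p = 0.00395). These 9 calls held whichever WT array was left out.

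The noncoding gene 2310065F04Rik lies on chromosome 11, as does Myh4, and its promoter window is the last printed above. Its levels were 3.64, 4.01 and 3.57 in soleus, all near background, and 9.14, 9.42 and 9.70 in TA. It was at least 21.4-fold higher in TA (adjusted p = 2.73e-07).

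A list of Hox, T-box and other developmental genes was drawn up for limb position. Of 24 measured, 4 were higher in soleus and 3 in TA (29.2% called, against 10.7% of all genes). Tbx1, a T-box transcription factor, had levels of 4.98, 6.29 and 7.05 in soleus and 10.37, 10.54 and 10.48 in TA (difference -4.36, SE 0.41, adjusted p = 0.000261). Its relative Tbx3 was near background in TA and at least 1.77-fold higher in soleus. Tbx18, also called in soleus, was near background in both muscles, so no size is given. Tbx4, with soleus levels of 4.19, 5.28 and 5.40, was near background in TA and kept its call in 9 of 20 settings. Hoxd8 was higher in soleus (1.48, SE 0.26, adjusted p = 0.00694) and Hoxc10 higher in TA (-1.10, SE 0.21, adjusted p = 0.00901). The list was thinly measured: of 46 members 24 entered the test, with 5 of the others read by no probe set that names them alone and the rest under the filter on low values.

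Neuromuscular junction genes had 2 of 18 higher in each muscle (22.2% called, against 10.7% of all genes). Prima1, which anchors acetylcholinesterase to membranes, had levels of 3.72, 4.01 and 3.96 in soleus and 8.05, 7.51 and 8.53 in TA. The soleus values were near background, and Prima1 was at least 8.15-fold higher in TA (adjusted p = 7.40e-05). Erbb3, a neuregulin receptor, was higher in soleus (0.96, SE 0.19, adjusted p = 0.0107). Among 24 genes of muscle growth and breakdown, 3 were higher in soleus and 2 in TA (20.8% called, against 10.7% of all genes). Fst, follistatin, a myostatin antagonist, had levels of 7.16, 7.06 and 6.96 in soleus and 5.14, 4.91 and 5.71 in TA (difference 1.81, SE 0.19, adjusted p = 0.000395). Gadd45a, a gene of denervation and stress responses, was higher in TA (-1.48, SE 0.19, adjusted p = 0.00137).

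The pathway of the deleted gene was examined between the WT muscles. H6pd supplies NADPH within the endoplasmic reticulum from glucose-6-phosphate, which enters through the transporter encoded by Slc37a4. Of 21 genes of this pathway and of glucocorticoid response measured, 3 were higher in TA and 1 in soleus. Called were thus 19%, against 10.7% of all genes. H6pd did not pass (difference -0.58, SE 0.62, adjusted p = 0.577). Slc37a4 had levels of 8.47, 9.24 and 8.24 in soleus and 11.93, 11.85 and 11.41 in TA (difference -3.08, SE 0.33, adjusted p = 0.000407). Sgk1, a kinase induced by glucocorticoids, differed by -1.16 (SE 0.23, adjusted p = 0.0107). The calls of G6pc3, a ubiquitous glucose-6-phosphatase (-0.74), and Pik3r1, a regulatory subunit of phosphoinositide 3-kinase (0.96), were each lost in 5 of the 6 single omissions of a WT array (adjusted p up to 0.108 and 0.128). The list had 2 calls without soleus replicate 1, soleus replicate 2 or TA replicate 1.

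Heat shock genes were higher in soleus where called: 7 of 18 (38.9%, against 4.44% of all genes higher in soleus), with 0 higher in TA and a median of 0.54. Hspb7, a small heat shock protein of heart and muscle, differed by 1.87 (SE 0.32, adjusted p = 0.00602) and Hspa1l by 1.69 (SE 0.25, adjusted p = 0.00253), and these 2 calls held whichever WT array was left out. Hspa1a, an inducible HSP70 gene, had levels of 9.51, 8.86 and 8.0 in soleus and 4.86, 6.35 and 3.63 in TA (difference 3.84, SE 0.84, adjusted p = 0.0186). Its near-identical copy Hspa1b differed by 3.27 (adjusted p = 0.0401), and probe sets may not separate the pair. Both lost their call without soleus replicate 1 or 2 or TA replicate 1 or 3 (adjusted p up to 0.0747 for Hspa1a and 0.139 for Hspa1b). The list had 2 calls without soleus replicate 1, 4 without soleus replicate 2, 2 without TA replicate 1, 3 without TA replicate 3 and 2 without both WT arrays numbered 3. Of 14 immediate early genes, often raised by handling of tissue, 14.3% were called, against 10.7% of all genes. Among them 1 was higher in soleus and 1 in TA. These were Atf3 (2.95, adjusted p = 0.0314, lost on omission of any 1 of the 6 WT arrays, adjusted p up to 0.103) and Nr4a1 (-1.78, SE 0.31, adjusted p = 0.00624). The median of the 14 was 0.40, and the part of handling in the heat shock result was not tested.

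Of 24 antioxidant genes 1 was higher in each muscle (8.33% called, against 10.7% of all genes). They were Mgst1, a microsomal glutathione transferase (1.48, SE 0.25, adjusted p = 0.00488), and Gclm, the modifier subunit of glutathione synthesis (-1.39, SE 0.24, adjusted p = 0.00638).

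Several of the largest differences lay in genes outside these lists. On the soleus side, Tecrl, a reductase-like gene of heart muscle, was near background in TA and at least 21.3-fold higher in soleus. Lgi1, a secreted protein best known from neurons, had levels of 10.10, 9.62 and 8.88 in soleus and 3.13, 2.89 and 2.73 in TA, at least 23.2-fold higher in soleus. Cyp2e1, a cytochrome P450, and Rspo3, a secreted activator of Wnt signalling, were at least 9.27-fold and 9.80-fold higher. Bdh1, the mitochondrial enzyme of ketone body use, had levels of 11.39, 11.38 and 12.37 in soleus and 4.20, 4.30 and 8.28 in TA, where replicate 3 stood far above the other 2 arrays. The Bdh1 difference was 6.12 (SE 1.26, adjusted p = 0.014), with an adjusted p of 0.0523 without TA replicate 1 and 0.0544 without TA replicate 2.

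On the TA side, Tspan8, a tetraspanin, had levels of 6.40, 6.82 and 6.77 in soleus and 11.51, 11.12 and 11.71 in TA (difference -4.78, SE 0.32, adjusted p = 2.89e-05). Smox, spermine oxidase, differed by -4.55 (SE 0.27, adjusted p = 9.67e-06). Padi2, which converts arginine to citrulline in proteins, differed by -3.92 (SE 0.36) and Tlcd4 by -3.82 (SE 0.32), and of 2 other, dimmer Tlcd4 probe sets 1 was called at -2.49 and 1, at -1.72, was not. Tpbgl was near background in soleus and at least 12.4-fold higher in TA.

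Of 20 endothelial markers 3 were higher in soleus and 0 in TA (15% called, against 10.7% of all genes), with a median of 0.10. They were Pecam1 (0.97), Vwf (0.63) and Tek (0.63), and none of the 3 calls held on every omission of a WT array (adjusted p up to 0.0817, 0.138 and 0.0588). Of 19 fibroblast and matrix markers 2 were called (10.5%, against 10.7% of all genes), both higher in soleus. They were Fn1, fibronectin (1.84), and Mfap5 (1.27), both lost on some omissions (adjusted p up to 0.0652 and 0.151). The summed unlogged signal of the fibroblast and matrix markers was 123200 to 145600 in soleus and 105200 to 119300 in TA. That of the satellite cell markers was 1361 to 1783 and 943 to 1223. That of the Schwann cell and nerve markers was 1568 to 3755 and 1342 to 1548. None of the 3 sums overlapped, which was also so for 35.3% of all single genes. The Schwann cell and nerve sums nearly met, at 1568 in the lowest soleus array and 1548 in the highest TA array. The sums of the endothelial markers (13650 to 15980 and 13500 to 16440), the smooth muscle and pericyte markers (37680 to 49660 and 33930 to 40870) and the myeloid markers (3585 to 4821 and 1933 to 3594) overlapped. The part of these cell types in the fibre gene differences was not tested. Of 14 smooth muscle and pericyte markers 2 were higher in soleus and 1 in TA (21.4% called, against 10.7% of all genes). Cspg4 was near background in TA and at least 2.62-fold higher in soleus, with another probe set at 0.18 and not called, and Kcnj8 differed by 0.46, a call lost on single omissions (adjusted p up to 0.141). Lmod1, the call in TA, was near background in both muscles, so no size is given. Of 13 myeloid markers limma called 0 (against 10.7% of all genes), with 0 at an unadjusted p under 0.05 and a median of 0.46. Of 9 satellite cell markers 3 were called (33.3%, against 10.7% of all genes). They were Myf5 (1.25) and Fgfr4, higher in soleus, and Pax3, higher in TA. All were lost on some omission (adjusted p up to 0.0963, 0.12 and 0.138). Fgfr4 and Pax3 were near background in both muscles, so no size is given.

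Tendon markers had a median difference of 0.87, with 11 of 14 not overlapping between the muscles (against 35.3% of all genes) but 1 called (7.14%, against 10.7% of all genes). This was Chad, chondroadherin (1.60, adjusted p = 0.0372, up to 0.129 on single omissions). The summed unlogged signal of the tendon markers was 16020 to 19760 in soleus and 10440 to 12450 in TA. Among 9 adipocyte markers 2 were called in soleus and 1 in TA (33.3% called, against 10.7% of all genes). Adipoq, adiponectin, had levels of 10.59, 10.23 and 7.97 in soleus and 6.00, 6.36 and 2.59 in TA. Replicate 3 was the lowest array of both groups. The Adipoq difference was 4.61 (SE 1.05, adjusted p = 0.0223), with an adjusted p of 0.088 without soleus replicate 1 and 0.0776 without soleus replicate 2. Cidea, a lipid droplet protein of fat, was at least 4.31-fold higher in soleus (adjusted p = 0.00255). Car3, a carbonic anhydrase that muscle also expresses, was higher in TA (-0.34, adjusted p = 0.0314, up to 0.103 on single omissions). Of the 9 measured adipocyte markers 8 lay above 0 and 8 did not overlap between the muscles (against 35.3% of all genes), with a median of 1.47. The summed adipocyte signal was 60510 to 81620 in soleus and 66000 to 74560 in TA, a sum to which Car3 adds levels above log2 15, and Lep and Ucp1 lay under the filter on low values. The share of fat cells in the fatty acid differences above was not tested.

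Of 5 lymphocyte markers 2 were called (40%, against 10.7% of all genes), both higher in TA. Ighm, the heavy chain of immunoglobulin M, had levels of 6.01, 6.46 and 5.11 in soleus and 10.57, 10.65 and 11.03 in TA (difference -4.89, SE 0.47, adjusted p = 0.000278), and 4 other probe sets of Ighm, with means under log2 5, were not called. Ms4a1, a B cell surface protein, was called in TA (adjusted p = 0.038, up to 0.135 on single omissions) but near background in both muscles. The other defining markers were near background, with means of 3.27 for Cd4 in both muscles, of 4.11 and 4.26 for Cd3e and of 4.25 and 4.47 for Cd8a, and Cd79a and Cd79b lay under the filter on low values. Of 3 erythroid markers 1 (33.3%, against 10.7% of all genes), the anion exchanger Slc4a1, was called in TA (adjusted p = 0.00723) but near background in both muscles. Of 7 Schwann cell and nerve markers 1 was called (14.3%, against 10.7% of all genes). It was the myelin protein gene Pmp22, higher in soleus (1.06, adjusted p = 0.0374, up to 0.133 on single omissions).

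The same muscle comparison in the KO arrays called 1165 genes (8.96%), 565 (4.34%) higher in soleus and 600 (4.61%) in TA. Its group means share no array with those of the WT comparison. The spread of each gene was estimated from the WT and KO arrays together, however, so the WT and KO calls and their overlap are not independent. Fitted separately, the WT arrays gave 706 calls and the KO arrays 631. In the joint fit, the block for the replicate number raised the KO count from 1165 to 2194. Of the 1165 genes called without it, 640 were called with the same direction in WT, which is 46% of the WT calls and 54.9% of the KO calls, and 0 were called in opposite directions. Of the 1392 WT calls, 1362 (97.8%) had the same sign in KO. All 13 slow and 10 fast contractile genes called in WT were called in KO in the same direction, as were 11 of the 13 glycolytic genes. Myh7 differed by 7.45 in KO against 9.46 in WT, Tnni1 by 6.74 against 8.31, Actn3 by -4.43 against -4.02 and Myh4 by -4.27 against -4.45. For the fatty acid list the KO arrays gave 7 calls and a median of 0.17, against 20 calls and 0.75 in WT. The test of the difference between genotypes, an interaction term, called 0 of these 34 genes by limma (smallest adjusted p = 0.351). At an unadjusted p under 0.05 this term held 11 of the 34, against 743 of all 13009 genes.

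Over all genes the muscle difference itself differed between genotypes in 5 genes (0.0384%), with 743 at an unadjusted p under 0.05. For 2310065F04Rik, whose soleus levels were near background, the fitted difference was -5.67 in WT and -0.12 in KO (WT minus KO -5.55, SE 0.25, adjusted p = 1.04e-05). The 3 KO TA arrays read 3.53, 3.10 and 3.15, near background, where the WT TA arrays read 9.14 to 9.70. For Mss51 the KO TA arrays read 7.86, 6.77 and 6.98, below the 10.21 to 11.21 of the WT TA arrays, and for Prima1 they read 5.0, 4.01 and 3.80 against 7.51 to 8.53. In soleus the WT and KO means were 3.74 and 3.14 for 2310065F04Rik, 5.20 and 5.15 for Mss51, and 3.89 and 3.72 for Prima1. The remaining 2 genes, Bhlha15 and Arv1, were not called in WT (differences of -0.02 and 0.08) and lay under log2 5 on all 12 arrays. The call of 2310065F04Rik held in all 24 other settings run (adjusted p 4.17e-06 to 0.00951). The calls of the other 4 did not: Mss51 was lost in 15 of 25 settings and Prima1 in 15 of 24, among them the replicate block (adjusted p = 0.0704 and 0.0607), and Bhlha15 was lost in 8 and Arv1 in 5 of 24.

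**Figure D5:**
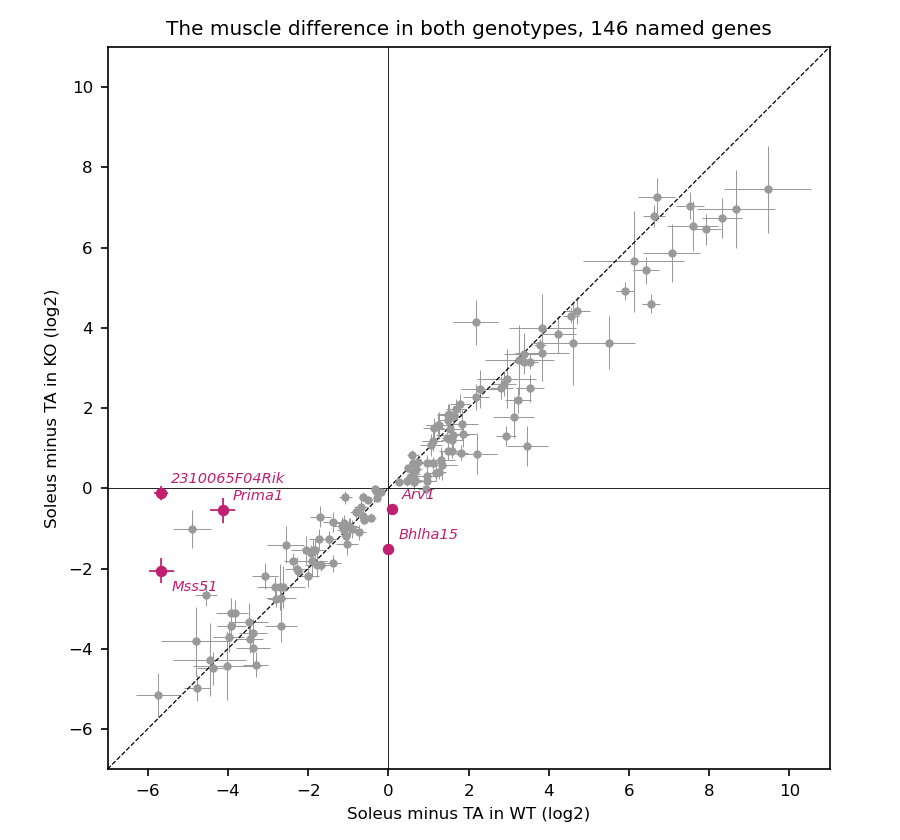
Soleus minus TA (log2) in WT (x axis) and in KO (y axis) for 146 named genes, with standard errors as bars and a dashed line of equality; coloured points are the 5 genes whose difference itself differed between genotypes. The points farthest from the line are 2310065F04Rik at -5.67 and -0.12, Ighm at -4.89 and -1.01 (not called for the difference between genotypes, adjusted p = 0.188), Mss51 at -5.67 and -2.05 and Prima1 at -4.13 and -0.55, all fitted values.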

How the data were processed

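Total RNA of soleus and TA was extracted with Trizol and hybridised as biotin-labelled cRNA to 12 single-colour Affymetrix arrays, per the labels' protocols. The authors deposited 1 table of log2 signals, made with MAS5 per the submitters' processing notes (no version given), and its scale was read from its values (0.889 to 16.36). The notes state neither background correction nor scaling, and the labels no number of mice per array, so p-values measure the spread between these arrays, whose number limits the precision.

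Of 45101 probe sets, 34945 named 1 gene, 932 several, 9160 none, and 64 were controls. Arrays were quantile normalized. Probe sets above log2 2.76 (the 40th percentile) on at least 3 arrays were kept, and the brightest of each gene was used (13009 genes, 12984 found in RefSeq). Probe set names come from GEO's platform annotation. limma 3.58.1 in R 4.3.3 fitted 4 group means over the 12 arrays (lmFit, eBayes with a variance trend), and p-values were Benjamini-Hochberg adjusted over all 13009 genes. For a called gene under log2 5 on all 3 arrays of 1 muscle the fold is given as a bound, and no size where both muscles were under it. Differences set between genotypes, list medians and figures use the fitted values. With 3 arrays against 3, an exact permutation test could not go below 0.1.

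Arrays with the same replicate number deviated together (correlations 0.351, 0.14 and 0.594 over genes), so a block fit was set beside the fit. The numbers come from the titles, but no label says that they pair the muscles, and this reading comes from the values. Soleus replicate 1 correlated nearly as well with TA replicate 2 (0.347). Soleus replicate 2 correlated better with TA replicate 1 (0.218) than with its own number. Named genes were the 15 highest and 15 lowest called differences reaching log2 7 in 1 muscle, up to 6 called genes of each list, and the isoform pairs. The members and lists were chosen with earlier results of these data known. On simulated data with 13009 genes, 59 of 100 genes changed by 1 log2 unit and 89 of 100 changed by 2 were recovered, with 6 false calls. The simulated noise was independent between arrays, without the shared deviation by replicate number, and fewer genes were changed than were called here. These figures may therefore not hold for the real arrays.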

Additional observations from a re-analysis of the deposited data

Results flagged for a closer look

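The soleus minus TA difference differed between WT and KO, by the interaction term of the limma fit, in 5 genes. For 2310065F04Rik the WT difference minus the KO difference was -5.55 (SE 0.25, adjusted p = 1.04e-05), with means of 9.42 in WT TA and 3.26 in KO TA.

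For Mss51 the 2 differences, -5.67 in WT and -2.05 in KO, lay -3.61 apart (SE 0.44, adjusted p = 0.0289), and for Prima1, -4.13 in WT and -0.55 in KO as fitted, they lay -3.59 apart (SE 0.45, adjusted p = 0.0289). The soleus levels of 2310065F04Rik and Prima1 were near background, so their WT folds are only bounds (at least 21.4-fold and 8.15-fold higher in TA). All 3 of these genes were lower in KO TA than in WT TA in every array.

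For Bhlha15 the term was 1.496 (SE 0.17, adjusted p = 0.0223), with a KO difference of -1.51, and for Arv1 it was 0.61 (SE 0.06, adjusted p = 0.0116), with a KO difference of -0.53. The levels of both genes stayed under log2 5 on all 12 arrays.

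Leaving out 1 array ended the call of Prima1 in 9 cases, of Mss51 in 8, of Bhlha15 in 5 and of Arv1 in 1 (without WT soleus replicate 3, adjusted p = 0.0598). Without the arrays numbered 3 the adjusted p was 0.385 for Mss51, 0.253 for Prima1 and 0.0837 for Arv1. The call of 2310065F04Rik held in each of these fits.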

How the results depend on the processing

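The count of 1392 genes was 2800 under array weights, 706 with only the 2 WT groups fitted, 2369 with the replicate block, and 699 to 1281 with 1 WT array left out. It was within 1.5 times of 1392 under the other settings, including 1680 on the table as deposited, 1389 under median centring, 1221 without the filter and 2062 with the block within genotype. The KO count of 1165 was 631 with only the 2 KO groups, 2194 and 2000 with the replicate block (3 and 6 levels), and 585 to 1072 with 1 KO array left out.

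The 5 genes whose difference differed between genotypes became 3 under median centring, 3 without the filter, 1 with a mean above log2 5, 8 with every probe set, 1 without a variance trend, 10 with array weights, 8 without the arrays numbered 3, 3 with the 6-level block, and 1 to 20 with 1 array left out (20 without KO TA replicate 1). The cause of these changes was not tested.

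Of 176 named genes 155 were called, 92 of these kept direction and call in every setting, and 108 kept their call when each WT array was left out. None of the 155 reversed in any setting run. Signs turned for uncalled genes near 0: Bhlha15 to 0.0106 under median centring, and Tnnc2 to 0.00633 under array weights and to 0.00818 without WT soleus replicate 3 (range with 1 WT array left out -0.0741 to 0.00818). Besides the genes given in the report, the block (3 levels) added calls for Epb42, Prkaa1 and Mcu (-0.11, 0.65 and 0.55) and changed no other WT call of a named gene. Leaving out both WT arrays numbered 3 was chosen after seeing the data. Levels near the top of the scale and the background near log2 5 limit differences at both ends.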

Other observations

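Several paralogue pairs outside the lists above lay on opposite sides of the WT comparison. These genes were chosen after their values were seen, and the pattern was given no test of its own. Homer2, a scaffold protein of calcium signalling, had levels of 12.22, 12.10 and 12.21 in soleus and 8.78, 8.70 and 8.84 in TA (difference 3.40, adjusted p = 4.70e-07). Homer1 differed by -0.78 (adjusted p = 0.0118, and 0.0508 without soleus replicate 1). Smtnl1, a smoothelin-like protein of contractile tissue, had levels of 12.29, 12.41 and 12.54 in soleus and 7.93, 8.67 and 9.31 in TA (difference 3.78, adjusted p = 0.000389), while Smtnl2 differed by -1.27 (adjusted p = 0.00395). The Rab GTPase-activating proteins Tbc1d4 and Tbc1d1 are both regulators of GLUT4 traffic. Tbc1d4 was near background in TA and at least 3.30-fold higher in soleus (adjusted p = 0.00404), and Tbc1d1 differed by -2.42 (adjusted p = 0.00754). Micu2 and Micu3, regulators of the mitochondrial calcium uniporter, differed by 1.09 (adjusted p = 0.00272) and -2.90 (adjusted p = 0.000278), and the uniporter gene Mcu by 0.55 (adjusted p = 0.377).

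Among subunits of the AMP-activated kinase, Prkab2 had levels of 7.84, 8.59 and 8.96 in soleus and 11.58, 11.52 and 12.38 in TA (difference -3.37, adjusted p = 0.0004). The other beta subunit, Prkab1, differed by -0.44 (adjusted p = 0.122), and the catalytic subunits Prkaa1 and Prkaa2 by 0.65 (adjusted p = 0.101) and -0.47 (adjusted p = 0.0988). Kcng4, a modifier subunit of potassium channels, was higher in TA (-2.33, adjusted p = 0.0066), and Egln3, a prolyl hydroxylase of the hypoxia response, was higher in soleus (2.38, adjusted p = 0.000129).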
